A study of Mus musculus with 11 samples.

Results

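The glucocorticoid receptor gene and 8 genes that report on its activity were followed in mouse skin after a BET bromodomain inhibitor. The 9 genes are Nr3c1, which encodes the receptor, the targets Fkbp5, Tsc22d3, Sgk1, Zbtb16, Mt1, Mt2 and Pdk4, and Hsd11b1, which encodes an enzyme that makes the hormone. They were taken by name, with all 22 probe sets annotated to one of them alone, and the brightest probe set over all arrays stood for each gene. All 9 lay above the level set for dim genes on all 11 arrays, out of 18194 genes with a probe set of their own and 13710 bright enough to test.

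ABBV-075 (mivebresib) blocks the bromodomains with which BET proteins hold on to acetylated histones. Mice received 1 mg/kg of ABBV-075 and gave skin 6 h later (4 mice) or 24 h later (4 mice), or received vehicle (3 mice). Each mouse was 1 Affymetrix array made from whole skin RNA, and the sources used here do not give strain, sex, age or the hour at which vehicle skin was taken. The labels used here give hours after the dose and no hour of the day. A change with ABBV-075 and a change with time of day therefore cannot be told apart in any contrast. Values are log2(intensity + 16) after quantile normalization, where 4.00 is the floor, and differences on that scale come out too small for dim genes. Because each gene is read by its own probe set, levels are compared between mice and not between genes.

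Without hormone the glucocorticoid receptor rests in the cytoplasm in a complex with Hsp90 and immunophilins such as the product of Fkbp5. Hormone releases it to the nucleus, where paired receptors bind an inverted repeat in DNA, the glucocorticoid response element, and recruit coactivators to the gene. In skin this pathway restrains inflammation and governs the growth and barrier of the epidermis. Blood corticosterone, the hormone of mice, swings over the day and climbs with stress, and skin can regenerate it locally through Hsd11b1.

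Promoter windows of 300 bases, 250 before and 50 after each RefSeq start site in GRCm38.p6, were sought for every gene but Nr3c1. They were found for 7 of the genes, 14 windows in all. The 3 shown here hold matches to the kinds of element through which these genes are best known to be switched on. The Sgk1 window, one of 6 for that gene, lies at chr10:21993640-21993939 on the plus strand, and the capitals mark the full receptor element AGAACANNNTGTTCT, 189 to 175 bases before the start. That element reads the same on either strand. It occurs in 3 of all 32851 windows, or 0.00913%, and in 1 of the 14 windows of these genes. In the windows of Mt1 (chr8:94178839-94179138, plus strand) and Mt2 (chr8:94172368-94172667, plus strand) the capitals mark the core of the metal response element, TGCACNC or TGCGCNC on either strand.
Sgk1: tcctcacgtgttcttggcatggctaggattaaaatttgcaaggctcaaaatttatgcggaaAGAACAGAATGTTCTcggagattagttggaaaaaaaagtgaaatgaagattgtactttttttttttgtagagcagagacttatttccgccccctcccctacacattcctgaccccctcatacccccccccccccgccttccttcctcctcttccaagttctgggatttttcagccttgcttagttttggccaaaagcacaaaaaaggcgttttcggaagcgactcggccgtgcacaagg
Mt1: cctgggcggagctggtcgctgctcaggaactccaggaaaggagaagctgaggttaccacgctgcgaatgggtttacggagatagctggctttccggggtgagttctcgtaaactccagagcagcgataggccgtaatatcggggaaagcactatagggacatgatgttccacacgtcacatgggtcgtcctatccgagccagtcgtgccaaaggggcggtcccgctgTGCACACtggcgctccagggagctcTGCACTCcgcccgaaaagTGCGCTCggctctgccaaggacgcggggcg
Mt2: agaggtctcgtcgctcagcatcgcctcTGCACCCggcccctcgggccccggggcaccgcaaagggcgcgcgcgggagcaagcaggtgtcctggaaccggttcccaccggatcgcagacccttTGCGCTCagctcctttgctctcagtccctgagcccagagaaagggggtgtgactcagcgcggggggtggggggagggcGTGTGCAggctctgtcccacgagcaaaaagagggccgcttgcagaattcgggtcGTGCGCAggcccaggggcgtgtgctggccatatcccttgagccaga
Mt1 holds 3 such cores and Mt2 holds 4. Of all windows 25.7% hold at least 1, 1.97% hold 3 or more and 0.517% hold 4 or more. A match describes these letters in this window and is not a measured binding site.

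The arrays differed in brightness and in the condition of their RNA. The median deposited intensity ran from 18.9 to 57.4 at 6 h, 28.7 to 46.3 at 24 h and 40.5 to 51.9 in vehicle. The 5' to 3' signal ratio of beta-actin, which is lower when RNA is shorter, ran from 0.0725 to 0.425 at 6 h, 0.198 to 0.529 at 24 h and 0.484 to 0.593 in vehicle, with 6 h replicate 5 lowest. The same ratio for Gapdh ran from 0.104 to 0.711 at 6 h, 0.804 to 1.08 at 24 h and 0.698 to 0.911 in vehicle. Arrays of actin ratio under 0.3 had 0.104 (6 h replicate 5), 0.711 (6 h replicate 3) and 0.804 (24 h replicate 2). Keratinocyte, fibroblast, fat, muscle, endothelial and immune markers were all present, and no marker was at the floor on every array. In 24 h replicate 4 the summed fibroblast signal was 25100 and the summed basal keratinocyte signal 43000, against 64300 to 67400 and 9880 to 19400 in vehicle, and in whole tissue fewer cells of a type and less RNA per cell cannot be told apart.

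None of the 9 genes changed at a limma adjusted p under 0.05 at either time. At 6 h 0 of the 9 passed, where 0% of the 13710 genes did, and the adjusted p of the 9 ran from 0.343 to 0.996. At 24 h again 0 of the 9 passed, with 0% of all genes (adjusted p 0.592 to 0.995), and between 24 h and 6 h 0 of the 9, with 0% of all genes (adjusted p 0.264 to 0.991). At an unadjusted p under 0.05 limma gave 1099 genes higher and 1103 lower at 6 h, 433 higher and 613 lower at 24 h, and 516 higher and 755 lower for 24 h against 6 h. Of the 9, 0 lay under that p at 6 h, where 16.1% of all genes did. At 24 h 1 did (Pdk4), with 7.63% of all genes, and between 24 h and 6 h 1 (Tsc22d3), with 9.27% of all genes.

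Of the 9 genes, 8 had a mean above vehicle at 6 h (median difference 0.11, all genes 0.004) and 3 at 24 h (median -0.07, all genes -0.020). The first count rests on single arrays: without 6 h replicate 2, or without vehicle replicate 4, 4 of the 9 lay above vehicle at 6 h. It was 5 after median scaling and 0 in the intensities as deposited, where the median of all genes was -0.68. The 24 h count was 5 without 24 h replicate 3, without vehicle replicate 1 or with the actin ratio as a covariate, 2 without 24 h replicate 4, and 1 after median scaling or in the intensities as deposited. The plot of values by array shows how far mice of the same group lay apart.

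**Figure D1:**
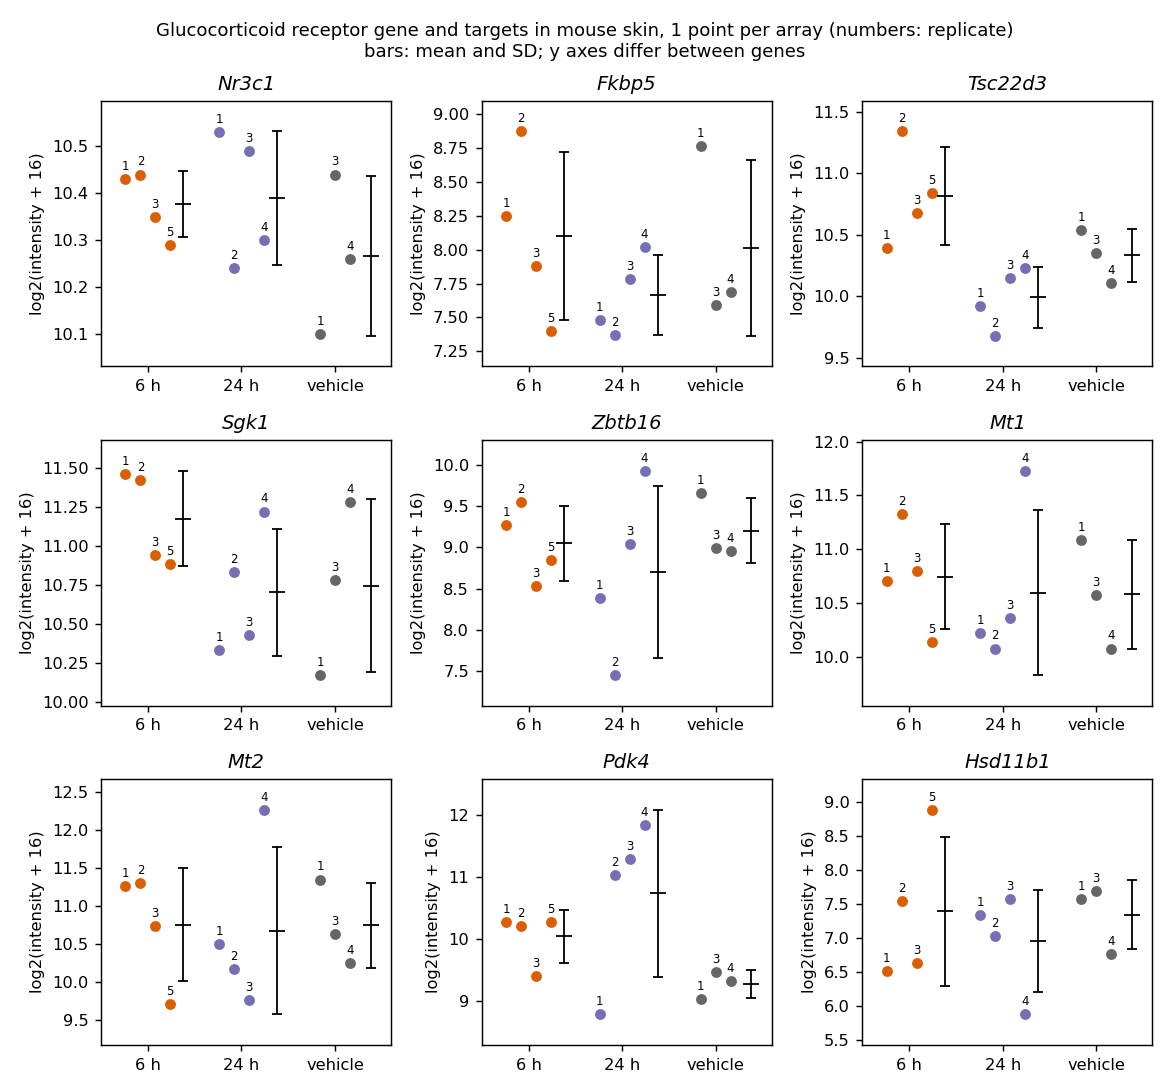
Log2(intensity + 16) of the brightest probe set of each gene on the y axis (scales differ between genes), with 1 point per array numbered by replicate for 6 h, 24 h and vehicle, and black bars for the mean and SD. Tsc22d3 at 24 h lies below every 6 h array, and for Pdk4 3 of the 4 arrays at 24 h lie at 11.03 to 11.83 and the other at 8.78.

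Nr3c1, the receptor itself, was the steadiest gene of the set. Its brightest probe set read 10.43, 10.44, 10.35 and 10.29 at 6 h, 10.53, 10.24, 10.49 and 10.30 at 24 h, and 10.10, 10.44 and 10.26 in vehicle. The 3 groups overlapped, and the SD within groups was 0.13, lower than in all but 2.92% of genes, where the median gene had 0.34. The difference from vehicle was 0.11 ± 0.15 (SE) at 6 h, with a 95% interval of -0.22 to 0.45, and 0.12 ± 0.15 at 24 h (-0.21 to 0.46). These intervals leave room for a receptor transcript between 0.856 and 1.36 times vehicle at 6 h and between 0.862 and 1.37 times at 24 h. After median scaling the 24 h difference was -0.17, and over the mean of its probe sets the 6 h difference was -0.01.

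The 6 Nr3c1 probe sets did not all move alike. The probe set 1421866_at averaged 7.50 ± 0.27 at 6 h and 7.68 ± 0.38 at 24 h against 8.18 ± 0.16 in vehicle (SD, n = 4, 4 and 3), and lay lower than vehicle in every 6 h array, as 6.14% of all 45101 probe sets did. The probe set 1457635_s_at averaged 9.90 ± 0.33 at 6 h and 9.73 ± 0.16 at 24 h against 9.44 ± 0.14 in vehicle. In a limma fit of all probe sets their differences at 6 h were -0.68 ± 0.22 and 0.46 ± 0.17, with adjusted p of 0.232 and 0.296, and 1421867_at differed by -0.04 ± 0.10. The probe set 1453860_s_at differed by -0.06 ± 0.34 at 6 h and 0.48 ± 0.34 at 24 h. Of the 5 probe sets that were not dim, 1 thus had a mean well below vehicle at 6 h, 1 above it and 3 near it. The lowest value of 1421866_at, 7.11, and the highest of 1457635_s_at, 10.33, were both in 6 h replicate 5, the array with the lowest actin ratio; the part of RNA length in this was not tested.

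**Figure D2:**
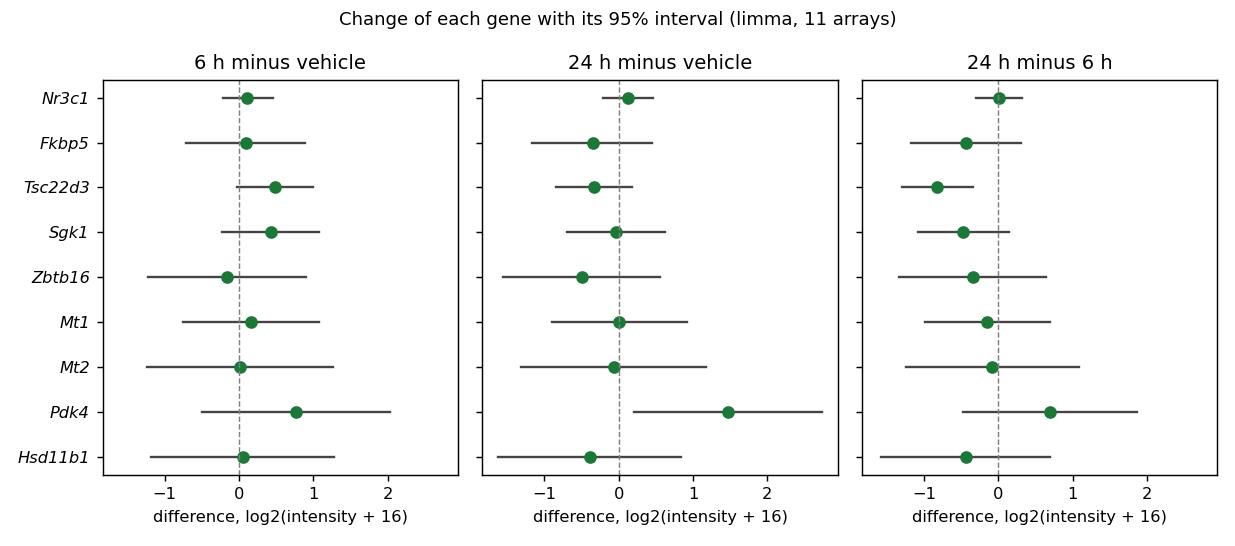
Difference in log2(intensity + 16) on the x axis for each gene, as a point with its 95% interval from limma over 11 arrays, in 3 panels (6 h against vehicle, 24 h against vehicle, 24 h against 6 h). The intervals of Pdk4 at 24 h (0.20 to 2.73) and of Tsc22d3 for 24 h minus 6 h (-1.29 to -0.34) leave out 0, although neither passed after adjustment over all genes.

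Fkbp5 encodes an immunophilin of the receptor complex that lowers its affinity for hormone, and is itself switched on by the receptor, which closes a feedback loop. It read 8.25, 8.87, 7.88 and 7.40 at 6 h, 7.48, 7.37, 7.78 and 8.02 at 24 h, and 8.76, 7.59 and 7.69 in vehicle. The groups overlapped, with 6 h replicate 2 and vehicle replicate 1 highest. The difference from vehicle was 0.09 ± 0.37 at 6 h (95% interval -0.72 to 0.89, limma adjusted p = 0.928) and -0.35 ± 0.37 at 24 h (-1.16 to 0.45, adjusted p = 0.822). Without vehicle replicate 1 the differences were 0.46 and 0.02. The other probe sets of Fkbp5 were dim. At 6 h 1448231_at averaged 4.58 and 1447736_at 4.22, against 5.25 and 4.16 in vehicle, with the floor at 4.00. At 6 h the difference of Fkbp5 was -0.13 after median scaling and -0.17 with the mean of probe sets, which takes in the dim ones. It was 0.48 with the actin ratio as a covariate and 0.81 with array weights (limma adjusted p = 0.0539). With array weights it was -0.94 between 24 h and 6 h (limma adjusted p = 0.0921), against -0.44 ± 0.34 without them. Weights were 0.903, 2.88, 0.612 and 0.299 at 6 h, 2.2, 0.561, 1.28 and 0.27 at 24 h, and 0.659, 4.85 and 1.54 in vehicle. The heaviest 6 h array, replicate 2, was also the highest in Fkbp5. Without weights the interval allows Fkbp5 at 6 h between 0.609 and 1.85 times vehicle.

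Tsc22d3 encodes GILZ, a leucine zipper protein that carries part of the anti-inflammatory action of glucocorticoids. It read 10.39, 11.34, 10.68 and 10.84 at 6 h, 9.92, 9.68, 10.15 and 10.23 at 24 h, and 10.54, 10.35 and 10.11 in vehicle. Every 24 h array lay below every 6 h array, as in 3.54% of all genes (1.92% lay above), while each time point overlapped with vehicle. The difference was 0.48 ± 0.24 at 6 h (limma adjusted p = 0.343), -0.33 ± 0.24 at 24 h (adjusted p = 0.736) and -0.82 ± 0.22 for 24 h minus 6 h (adjusted p = 0.264), or 0.568 times the 6 h level with an interval of 0.408 to 0.792. Of all genes 1.19% had a p as small for that last contrast, in which time after the dose and time of day cannot be told apart. With limma array weights, under which 2498 genes were called at 6 h and 423 between 24 h and 6 h, Tsc22d3 differed by 0.73 at 6 h (limma adjusted p = 0.0265) and by -1.06 between 24 h and 6 h (adjusted p = 0.0335). The largest weight at 6 h, 2.88, was on replicate 2, the array highest in Tsc22d3 (11.34). Without that array the unweighted 6 h difference was 0.30. With probe sets of the _x_at and _s_at kinds left out, the 6 h difference was -0.09.

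The 4 Tsc22d3 probe sets differed in sign from each other at 6 h and at 24 h. Which transcripts each reads was not analysed here. The dimmest, 1444365_at, read 5.72, 6.20, 6.27 and 6.01 at 6 h, 5.68, 5.82, 5.57 and 6.11 at 24 h, and between 4.95 and 5.23 in the 3 vehicle arrays. It lay above vehicle in every array at both times, as 7.9% of all probe sets did at 6 h and 4.92% at 24 h. In the fit of all probe sets it differed by 0.99 ± 0.16 at 6 h (limma adjusted p = 0.0764) and by 0.73 ± 0.16 at 24 h (adjusted p = 0.396). The probe set 1420772_a_at differed by -0.09 ± 0.30 at 6 h and -0.72 ± 0.30 at 24 h, and 1425281_a_at by -0.46 ± 0.44 and -0.69 ± 0.44. All 4 had a lower mean at 24 h than at 6 h, by -0.82, -0.64, -0.23 and -0.26, and the brightest was the one that lay lower in every array, as 2.49% of all probe sets did.

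**Figure D3:**
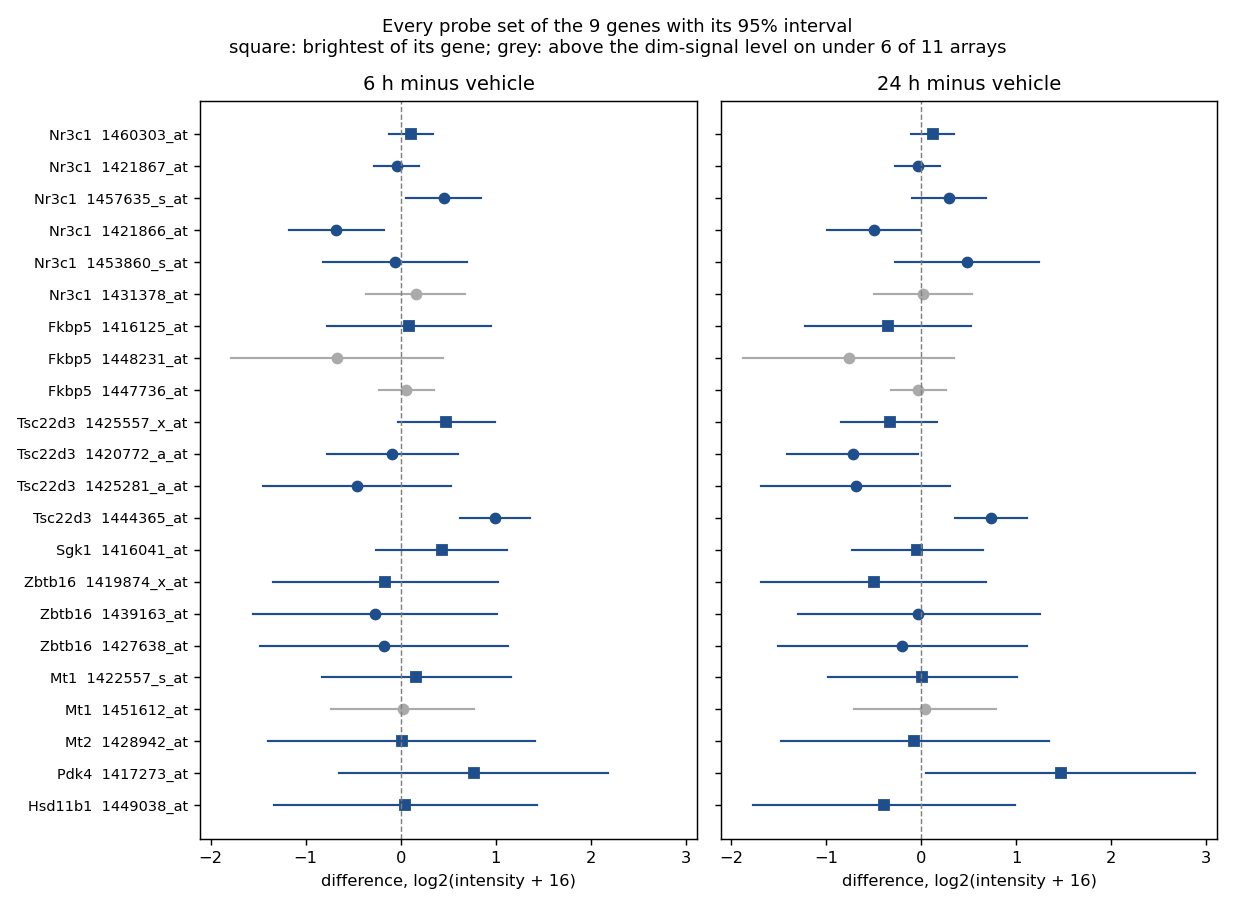
Difference from vehicle in log2(intensity + 16) on the x axis for each of the 22 probe sets, with 95% intervals, at 6 h and at 24 h. Squares mark the brightest probe set of a gene and grey marks probe sets that were dim on most arrays; Tsc22d3 1444365_at lies at 0.99 and 0.73 while 1425281_a_at lies at -0.46 and -0.69.

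In that fit of all probe sets 0.0976% passed an adjusted p under 0.05 at 6 h, 0.00665% at 24 h and 0.0377% between 24 h and 6 h. Of the 22 probe sets of the 9 genes 0 passed in any of the 3.

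Sgk1 encodes a kinase that raises sodium transport and cell survival, and its promoter window printed above carries the full receptor element. It read 11.46, 11.42, 10.94 and 10.88 at 6 h, 10.33, 10.83, 10.43 and 11.22 at 24 h, and 10.17, 10.78 and 11.28 in vehicle. The groups overlapped, and vehicle alone spanned nearly the whole range of the treated mice. The difference was 0.43 ± 0.30 at 6 h (95% interval -0.23 to 1.08, limma adjusted p = 0.503), -0.04 ± 0.30 at 24 h (-0.69 to 0.62) and -0.47 ± 0.28 for 24 h minus 6 h (adjusted p = 0.655). The 6 h difference was 0.14 without vehicle replicate 1 and 0.70 without vehicle replicate 4. At 24 h the sign turned with the actin ratio as a covariate (0.05).

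Zbtb16 encodes PLZF, a zinc finger repressor that is strongly induced by glucocorticoids in many tissues. It read 9.27, 9.55, 8.53 and 8.84 at 6 h, 8.39, 7.45, 9.04 and 9.93 at 24 h, and 9.66, 8.99 and 8.96 in vehicle. The spread was widest at 24 h, where replicate 2 was the lowest of all arrays and replicate 4 the highest. The difference was -0.16 ± 0.48 at 6 h (95% interval -1.22 to 0.90) and -0.50 ± 0.48 at 24 h (-1.56 to 0.56), with limma adjusted p of 0.897 and 0.804. At 6 h it turned to 0.27 with array weights and to 0.46 with the actin ratio as a covariate, and at 24 h it was -0.92 without replicate 4 and -0.08 without replicate 2. The other 2 probe sets of Zbtb16 differed by -0.27 ± 0.56 and -0.18 ± 0.58 at 6 h and by -0.03 ± 0.56 and -0.20 ± 0.58 at 24 h.

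Mt1 and Mt2 lie near each other and encode small cysteine-rich proteins that bind zinc and copper, and both respond to metals as well as to glucocorticoids. Mt1 read 10.71, 11.33, 10.80 and 10.14 at 6 h, 10.22, 10.08, 10.36 and 11.73 at 24 h, and 11.09, 10.58 and 10.08 in vehicle. Mt2 read 11.27, 11.30, 10.74 and 9.70 at 6 h, 10.50, 10.17, 9.76 and 12.27 at 24 h, and 11.35, 10.63 and 10.25 in vehicle. For both genes 24 h replicate 4 was the highest array and the groups overlapped. The difference of Mt1 was 0.16 ± 0.41 at 6 h and 0.01 ± 0.41 at 24 h (limma adjusted p = 0.873 and 0.995), and that of Mt2 0.01 ± 0.57 and -0.07 ± 0.57 (adjusted p = 0.996 and 0.982). The intervals are wide, and for Mt2 at 6 h they span 0.422 to 2.4 times vehicle. Without 24 h replicate 4 the 24 h differences were -0.37 for Mt1 and -0.60 for Mt2, and without vehicle replicate 1 they were 0.27 and 0.24. The Mt1 probe set is of the _s_at kind, which can read more than 1 transcript, so part of its signal may be shared with a close relative.

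Pdk4 encodes the kinase that shuts off pyruvate dehydrogenase and so spares glucose, and is raised by fasting, by Ppar receptors and by glucocorticoids. It had the largest difference from vehicle of the 9 genes at both times. It read 10.27, 10.21, 9.39 and 10.27 at 6 h, 8.78, 11.03, 11.29 and 11.83 at 24 h, and 9.02, 9.46 and 9.32 in vehicle. At 24 h 3 arrays lay far above vehicle and replicate 1 lay below all of it, so the groups overlapped. The difference was 0.77 ± 0.58 at 6 h (limma adjusted p = 0.539) and 1.47 ± 0.58 at 24 h (95% interval 0.20 to 2.73, unadjusted p = 0.0267, adjusted p = 0.592), which is 2.76 times vehicle with an interval of 1.15 to 6.62. Leaving out 1 array gave 1.10 to 2.12 at 24 h, the highest without 24 h replicate 1. With array weights the 24 h difference was 0.62 (limma adjusted p = 0.611), and in the intensities as deposited it was 0.75. Between 24 h and 6 h the difference of 0.70 was 1.35 without that array, 0.33 without 24 h replicate 4 and -0.11 with array weights. The summed signal of skeletal muscle, a tissue rich in Pdk4, was 98700, 83500, 94700 and 121000 in the 24 h arrays. In vehicle it was 57600, 92200 and 104000, and the part of muscle in the Pdk4 values was not tested.

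Hsd11b1 encodes the reductase that regenerates active corticosterone inside cells of fat, dermis and other tissues. It read 6.52, 7.54, 6.63 and 8.88 at 6 h, 7.34, 7.03, 7.57 and 5.88 at 24 h, and 7.57, 7.69 and 6.77 in vehicle. The highest value of all was in 6 h replicate 5 and the lowest in 24 h replicate 4. The difference was 0.05 ± 0.56 at 6 h (95% interval -1.18 to 1.28) and -0.39 ± 0.56 at 24 h (-1.62 to 0.84), with limma adjusted p of 0.974 and 0.872. Without 6 h replicate 5 the 6 h difference was -0.45, and without 24 h replicate 4 the 24 h difference was -0.03. In that last array the summed adipocyte signal was 12700 and the fibroblast signal 25100, each the lowest of the 11, and their part in the Hsd11b1 value was not tested.

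Mice of the same group differed more in these genes than in most. The SD within groups was 0.53 for Fkbp5, 0.61 for Mt1, 0.73 for Zbtb16, 0.85 for Hsd11b1, 0.86 for Mt2 and 0.87 for Pdk4, against a median of 0.34 over all genes, and that of Pdk4 lay at the percentile 96. Tsc22d3 (0.31) and Nr3c1 (0.13) lay below the median. The same mice were high for several of the genes. For Fkbp5, Tsc22d3, Zbtb16, Mt1 and Mt2 the highest array was replicate 2 at 6 h, replicate 4 at 24 h and replicate 1 in vehicle, a pattern seen after the values were known. It held for 5 of the 9 genes, for 1.39% of all genes tested and for 1 of 28 further glucocorticoid-induced genes (Ddit4). Among the other probe sets of these 5 genes it held for both of Zbtb16 and for Fkbp5 1448231_at, which was dim. It did not hold for Fkbp5 1447736_at or Mt1 1451612_at, which were dim too. Nor did it hold for the other 3 of Tsc22d3, so for Tsc22d3 it held in 1 of 4 probe sets.

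Marker sums in the same 3 mice were as follows, and their part in the pattern was not tested. The basal keratinocyte sum was 27100 in 6 h replicate 2, 43000 in 24 h replicate 4 and 9880 in vehicle replicate 1, the last being the lowest of all arrays. The macrophage and dendritic cell sum was 16900, 5570 and 42100 in the same 3 arrays, the last being the highest of all. Their actin ratios were 0.377, 0.423 and 0.484.

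Over the 11 arrays Mt1 and Mt2 moved together most closely. Pearson's r was 0.91 (permutation p = 0.00011, adjusted p = 0.00396 over 36 pairs of the 9 genes) and Spearman's rho 0.87 (p = 0.00099, adjusted 0.0356). Without the 2 arrays farthest out in Mt1 r was 0.81, and after group means were taken off it was 0.91. The Mt1 probe set is of the _s_at kind, and the part of signal shared with Mt2 in this r was not tested. The other Mt1 probe set, 1451612_at, lay near the floor, at 4.00 to 5.08 at 6 h. Fkbp5 and Mt1 had r = 0.74 and rho = 0.82 (permutation p = 0.0102 and 0.00331, adjusted 0.123 and 0.0414), and Fkbp5 and Zbtb16 r = 0.70 and rho = 0.82 (permutation p = 0.0168 and 0.00382, adjusted 0.151 and 0.0414). Without the 2 farthest arrays r was 0.68 and 0.67. Zbtb16 and Mt1 had r = 0.76 and rho = 0.75 (permutation p = 0.00611 and 0.00961, adjusted 0.11 and 0.0692). Fkbp5 and Mt2 had r = 0.65 and rho = 0.80 (permutation p = 0.0297 and 0.0046, adjusted 0.182 and 0.0414). For Nr3c1 with the 7 targets r lay between -0.18 and 0.10 over the 11 arrays. Without the 2 farthest arrays these values moved to between -0.14 and 0.51, with Fkbp5 at 0.51, Zbtb16 at 0.42 and Tsc22d3 at 0.38, so they rest on those arrays. The pairs share their arrays.

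**Figure D4:**
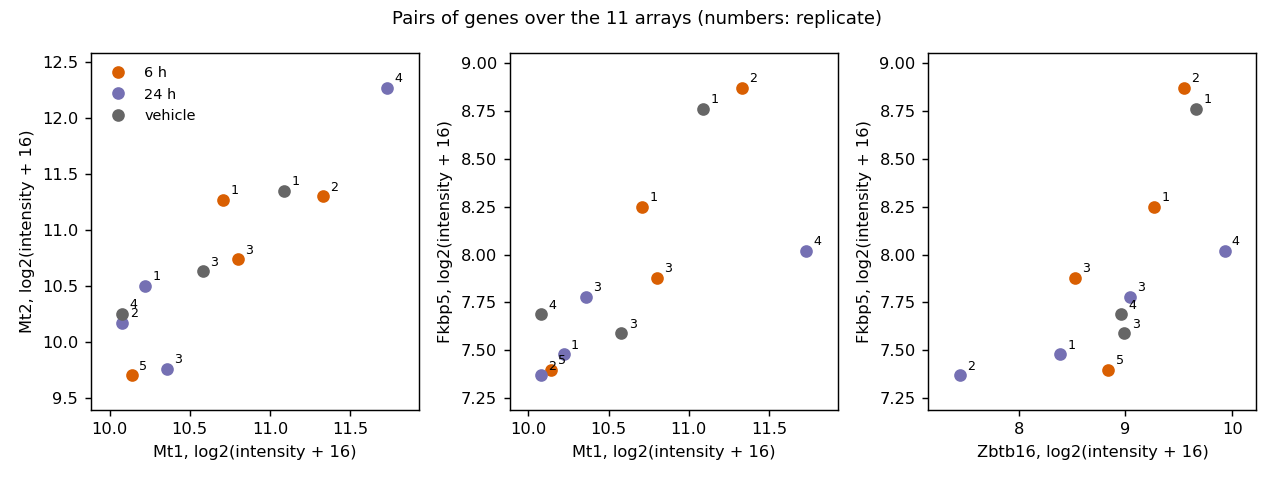
Log2(intensity + 16) of Mt2 against Mt1, Fkbp5 against Mt1 and Fkbp5 against Zbtb16, 1 point per array with its replicate number, coloured by 6 h, 24 h and vehicle. The points of all 3 groups lie along 1 rising band in the first panel, with 24 h replicate 4 at its upper end.

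Among all 13710 genes, the closest in pattern to a member by Pearson's r over the 11 arrays were these, given as a description. For Fkbp5 they were Dnmt1 (r = 0.89), Nelfe (0.86) and Nrm (0.85), and for Tsc22d3 Rpl14 (0.94), Zfp319 (0.87) and Jkamp (0.86). For Mt1 they were Gprin1 (0.98), Trit1 (0.93) and Mt2 (0.91), for Sgk1 Slc2a4rg-ps (0.94), Lratd1 (0.92) and Ctnnb1 (0.92), and for Hsd11b1 Scn7a (0.95), Ccdc93 (0.94) and Tubgcp5 (0.93). For Pdk4 they were Epb41l4a (0.87), Rab3gap1 (0.87) and Tcf12 (0.85), for Zbtb16 Zbtb48 (0.91), Igsf23 (0.89) and Rhd (0.89), for Mt2 Ambra1, Rccd1 and Racgap1 (each 0.94), and for Nr3c1 Slc12a5 (0.87), Tcap (0.81) and Akr7a5 (0.81). They are the highest of 13710 values each, and no test was made.

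A wider list of 28 glucocorticoid-induced genes, all of them tested, had 0 called at either time. At 24 h 19 of the 28 had a mean below vehicle (median -0.32, all genes -0.020), and 7 lay lower in every 24 h array against 1 higher, where 6.02% of all genes lay lower and 5.09% higher. Cell type markers differed from vehicle at the same time. The mean was below vehicle for 10 of 10 fibroblast markers (median -0.63), 11 of 11 macrophage and dendritic cell markers (-0.91), 7 of 8 endothelial markers (-0.68) and 10 of 10 adipocyte markers (-0.67). It was above vehicle for 7 of 7 basal keratinocyte markers (0.55) and 11 of 12 skeletal muscle markers (0.31), with 0 called in any of these lists. Signs were mixed for suprabasal keratinocyte markers (3 above, 4 below, median -0.03) and lymphocyte markers (2 above, 4 below, median -0.20). The part of cell types in the values of the glucocorticoid-induced genes was not tested. Per1, a clock gene that the receptor also drives, read 6.31, 6.12, 5.18 and 7.34 at 24 h and 7.46, 8.25 and 7.83 in vehicle, a difference of -1.61 ± 0.41 (limma adjusted p = 0.531). Rhob, a small GTPase, differed by -0.85 ± 0.27 and Lcn2, a protein of inflammation that binds bacterial iron carriers, by -1.23 ± 0.40 at 24 h, each uncalled. Per1, Rhob and Lcn2 had the smallest p of the list at 24 h. The mean lay above vehicle for 9 of the 28, with Fbxo32, named here as the highest, at 0.61 ± 0.37. At 6 h 17 of the 28 had a mean below vehicle (median -0.20), and 1 lay lower in every array and 1 higher, where 8.77% and 9.77% of all genes did. Foxo3, a transcription factor of fasting and atrophy, differed by 0.58 ± 0.20, Lcn2 by -1.03 ± 0.40 and Il1r2, a decoy receptor for interleukin-1, by -0.66 ± 0.26 (limma adjusted p 0.231 to 0.264). Between 24 h and 6 h Per1 differed by -1.48 ± 0.38, Ddit4, an inhibitor of mTOR, by -0.65 ± 0.24 and Dusp1, a phosphatase that turns off MAP kinases, by -0.60 ± 0.23, with adjusted p of 0.255 to 0.448. Of the 9 members 6 had a mean below vehicle at 24 h, and Pdk4 was among the 3 above.

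**Figure D5:**
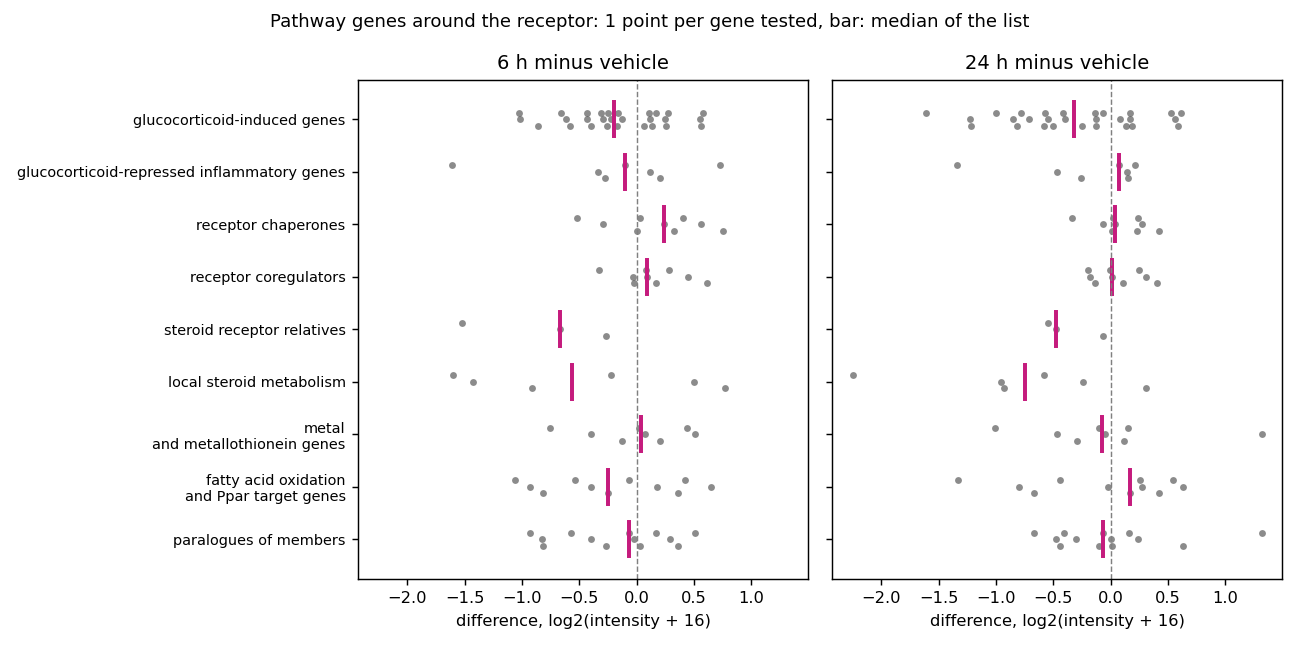
Difference from vehicle in log2(intensity + 16) on the x axis, 1 point per gene tested and a bar at the median, for 9 lists of genes around the receptor at 6 h and at 24 h. The median of the glucocorticoid-induced genes lies at -0.20 and -0.32, and that of the receptor chaperones at 0.24 and 0.04.

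The partners of the receptor were measured as well. Of 9 chaperone genes tested 7 had a mean above vehicle at 6 h (median 0.24) and 4 lay higher in every array, where 9.77% of all genes did, with 0 called. Hsp90aa1, the stress-inducible form of the Hsp90 that holds the receptor, read 11.95, 11.90, 11.83 and 11.74 at 6 h and 11.48, 11.30 and 11.11 in vehicle, a difference of 0.56 ± 0.16 (limma adjusted p = 0.18). Hspa1b, an Hsp70, differed by 0.75 ± 0.24 and Dnajb1, its cochaperone, by 0.40 ± 0.16. At 24 h the median was 0.04 and 0 of the 9 lay apart from vehicle in every array, where 5.09% of all genes lay higher and 6.02% lower. Of 9 coregulator genes 0 were called, with medians of 0.09 at 6 h and 0.01 at 24 h; the acetyltransferase Ep300 differed by 0.61 ± 0.27 at 6 h and 0.40 ± 0.27 at 24 h.

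Of 6 genes that make or activate steroids or control their making, 4 had a mean below vehicle at 6 h and 5 at 24 h, with 0 called at either time and medians of -0.56 at 6 h and -0.75 at 24 h. H6pd, which supplies the NADPH that Hsd11b1 needs, read 6.60, 5.17, 7.25 and 7.18 at 6 h, 7.67, 7.05, 7.50 and 5.85 at 24 h, and 8.42, 7.99 and 7.52 in vehicle. It lay below vehicle in every 6 h array, as 8.77% of all genes did. The difference was -1.43 ± 0.54 at 6 h (limma adjusted p = 0.246) and -0.96 ± 0.54 at 24 h. Mc2r, the receptor for adrenocorticotropic hormone that fat cells also carry in mice, differed by -1.60 ± 0.43 at 6 h and -0.93 ± 0.43 at 24 h, and Cyp17a1, a steroid hydroxylase, by -2.25 ± 0.76 at 24 h with 3 of 4 arrays at the floor. Star, which carries cholesterol into mitochondria, differed by 0.77 ± 0.40 at 6 h and by -0.58 ± 0.40 at 24 h. Pomc, the precursor of adrenocorticotropic hormone, differed by 0.50 ± 0.44 and 0.31 ± 0.44, a gene added here for its opposite sign after its values were seen. All 10 adipocyte markers tested also lay below vehicle on average at both times (median -0.88 and -0.67), with a summed signal of 20300 to 34200 at 6 h, 12700 to 38400 at 24 h and 34900 to 41800 in vehicle; their part in the H6pd and Mc2r values was not tested.

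Of 8 genes of metal handling 0 were called. Mt4, the metallothionein of differentiating keratinocytes, read 10.53, 11.65, 11.23 and 10.44 at 24 h and 9.14, 10.35 and 9.43 in vehicle. It lay above vehicle in every 24 h array, as 5.09% of all genes did. The mean difference was 1.32 ± 0.43 (limma adjusted p = 0.531). Mtf1, the metal-sensing factor that binds metal response elements, differed by 0.44 ± 0.24 at 6 h, and Hmox1, which degrades heme, by -1.01 ± 0.35 at 24 h. Around Pdk4, 0 of 11 genes of fatty acid oxidation and Ppar action were called. Ppara, which drives fatty acid oxidation, read 6.88, 6.71, 7.03 and 7.28 at 24 h and 6.29, 6.46 and 6.56 in vehicle (difference 0.54 ± 0.17, limma adjusted p = 0.531). Pparg, the receptor that makes fat cells, differed by -1.33 ± 0.43 and Ppard by -0.80 ± 0.26 at 24 h, while Cpt1a, which admits fatty acids to mitochondria, differed by 0.65 ± 0.28 at 6 h.

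Of the relatives of these genes, 13 were tested and 0 called at any time. Pdk1, a sister kinase of Pdk4, differed by 0.63 ± 0.24 at 24 h, and Sgk3 by -0.57 ± 0.23 and Pdk3 by -0.93 ± 0.43 at 6 h. The 3 steroid receptor genes measured beside Nr3c1 had lower means at both times, with Esr1 at -0.67 ± 0.31, Pgr at -1.52 ± 1.10 and Nr3c2, the mineralocorticoid receptor, at -0.27 ± 0.25 at 6 h. Of 7 inflammatory genes that glucocorticoids repress 0 were called; Cxcl1 differed by 0.73 ± 0.27 and Ccl2 by -1.61 ± 0.65 at 6 h, 2 chemokines with opposite signs, and Icam1, an adhesion molecule, by -0.47 ± 0.18 at 24 h.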

How the data were processed

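Skin RNA of 11 mice was hybridised to 1 Affymetrix array each, from 200 ng of total RNA with a 3' IVT kit and biotin label, per the labels' protocols. The deposited values are intensities on a linear scale, 1 per probe set, and some are below 0. The sources used here do not give the software, background correction or scaling behind them. The number of arrays limits the precision, and p-values measure the spread between these mice.

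Intensities of 45101 probe sets were quantile normalized, set to at least 0 and turned into log2(intensity + 16). Probe sets annotated to 1 gene (34958, of which 34754 were matched to RefSeq and took its symbol) were reduced to the brightest per gene. A further 932 had several genes and 9211 none. Genes above the 40th percentile (log2 5.21) on at least 3 arrays were kept, 13710 of 18194. One limma 3.58.1 model (R 4.3.3) over the 3 groups gave two-sided p-values with Benjamini-Hochberg adjustment over all genes at 0.05, with 95% intervals. A further fit took all probe sets with no filter. The fit of the genes kept was tested on simulated data for 6 h against vehicle, and the fit of all probe sets was not. Correlations between members used 1e+05 permutations.

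All 9 members are named in each contrast, with the 3 genes of smallest p in each pathway list where none was called, and the 3 genes most like each member. Examples in the text come from these, apart from Pomc and Fbxo32, which were added after their values were seen. Members and lists were chosen with earlier results of these data known. The highest-array pattern was found after the values were seen. Promoter sequences are from RefSeq (GRCm38.p6), matched by symbol for 7 members, and those of Nr3c1 were not looked up.

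At most 3 probe sets had identical intensities in 2 arrays. Arrays sharing a replicate number in the labels correlated, as deviations from group means, at 0.25, 0.13 and 0.21 between 24 h and vehicle. Those of 6 h and vehicle correlated at -0.12 and -0.07, and those of 24 h and 6 h at -0.06, -0.35 and 0.17. The fits above took no arrays as pairs, and the replicate number as a block was among the alternatives. Alternatives changed the scaling, pseudocount, filter, probe set, weights, variance prior, covariates and arrays used.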

Additional observations from a re-analysis of the deposited data

Results flagged for a closer look

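Of 44 groups of 4 arrays among the probe sets of the 9 genes, 3 had 1 array far from the other 3, and chance alone flags about 1 group in 20. Pdk4 read 9.39 in 6 h replicate 3, against 10.21 to 10.27 in the other 6 h arrays. Mt1 read 11.73 in 24 h replicate 4, against 10.08 to 10.36 in the other 24 h arrays. The dim Nr3c1 probe set 1431378_at read 4.61 in 24 h replicate 2, where the other 24 h arrays were at the floor of 4.00. For 0 of the 9 genes did all 6 h arrays and all 24 h arrays lie on opposite sides of vehicle.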

How the results depend on the processing

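Of 402 values under alternatives other than leaving out 1 array, 361 kept their direction and side of the threshold, 39 turned sign, 2 passed the threshold and 0 lost it; causes were not tested. With intensities as deposited the median gene moved by -0.68 at 6 h, -0.62 at 24 h and 0.08 between them, 859 genes were called at 6 h and 6 at 24 h, and the 6 h differences were -0.63 for Nr3c1, -0.76 for Fkbp5, -0.24 for Tsc22d3, -0.27 for Sgk1, -0.56 for Mt1, -0.75 for Mt2, -0.01 for Pdk4 and -0.69 for Hsd11b1, with -0.60 for Nr3c1 and -0.71 for Mt1 at 24 h. Median scaling moved the median gene by -0.09, -0.23 and -0.12 and gave -0.13 for Fkbp5, -0.07 for Mt2 and -0.08 for Hsd11b1 at 6 h, -0.17 for Nr3c1 and -0.27 for Mt1 at 24 h, and -0.21 for Nr3c1 between 24 h and 6 h. Cyclic loess gave -0.12 for Mt2 at 6 h and -0.06 for Mt1 at 24 h. The mean of probe sets gave 7 genes called at 6 h and 2 between 24 h and 6 h, with -0.01 for Nr3c1 and -0.17 for Fkbp5 at 6 h. Without _x_at and _s_at probe sets 1 gene was called between 24 h and 6 h, and Tsc22d3 was -0.09 at 6 h and Zbtb16 0.24 between 24 h and 6 h. With no filter 18 genes were called at 6 h and 1 at 24 h, and with the 2 groups fitted alone 1 and 2.

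Array weights called 2498 genes at 6 h, 59 at 24 h and 423 between them, with Tsc22d3 at 0.73 and -1.06 past the threshold at 6 h and between 24 h and 6 h, Zbtb16 at 0.27 and Hsd11b1 at -0.16 at 6 h, Mt1 at -0.18 at 24 h and Pdk4 at -0.11 between 24 h and 6 h. With the replicate number as a block 1 gene was called at 6 h, no call of a member changed, and signs turned for Zbtb16 (0.27) and Hsd11b1 (-0.92) at 6 h, Mt2 (0.02) at 24 h, and Nr3c1 (-0.00) and Hsd11b1 (0.36) between 24 h and 6 h. The actin ratio as a covariate called 1 gene between 24 h and 6 h and gave Zbtb16 0.46 and Hsd11b1 -0.63 at 6 h, Sgk1 0.05 and Mt2 0.27 at 24 h, and Nr3c1 -0.07 between 24 h and 6 h. Without the 3 arrays of actin ratio under 0.3, chosen after seeing the data, Zbtb16 was 0.20 and Hsd11b1 -0.31 at 6 h, and Mt2 0.09 at 24 h.

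Leaving out each array in turn gave 0 to 22 genes called at 6 h (22 without 24 h replicate 4), 0 to 1 at 24 h and 0 to 7 between 24 h and 6 h (7 without 6 h replicate 5), with no member called. At 6 h Fkbp5 ran from -0.17 to 0.46, Zbtb16 from -0.33 to 0.07, Mt1 from -0.09 to 0.42, Mt2 from -0.24 to 0.36 and Hsd11b1 from -0.45 to 0.34. At 24 h Fkbp5 ran from -0.56 to 0.02, Sgk1 from -0.33 to 0.23, Mt1 from -0.37 to 0.27 and Mt2 from -0.60 to 0.24. Between 24 h and 6 h Nr3c1 ran from -0.04 to 0.06, Zbtb16 from -0.76 to 0.07, Mt1 from -0.53 to 0.04, Mt2 from -0.61 to 0.22 and Hsd11b1 from -0.72 to 0.06.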
